A study of Drosophila melanogaster with 9 samples.

Results

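The features described here are the 74 repeat features that remain when FlyBase genes, features named as internal or terminal parts of retrotransposons with long terminal repeats (LTRs), the targeted element 412, the telomeric elements and low-complexity or satellite names are set aside. They are 74 of 14479 features in the deposited tables, 180 of which are repeats. By name, 57 of the 74 belong to 4 classes of transposon, with 32 LINE features, 21 DNA transposon features, 3 Helitron features and 1 foldback feature, FB4_DM. The other 17 were counted apart, because their names go against the label or give no class. They are 8 LTR features whose names end in another way (such as ROVER-I_DM and QUASIMODO2-I_DM), 3 ribosomal features, 1 vector feature (PLACW_DM) and 5 features with no sure class. In the authors' annotation all 32 LINE features carry the Pfam reverse transcriptase domain, and 11 of the 21 DNA features and FB4_DM carry a transposase domain.

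Paired-end RNA-seq was done on total RNA of pooled thoraces from Drosophila melanogaster females at adult day 20, on the w1118 (BL5905) background, to study retrotransposon expression in aging. All flies, controls included, carried a short hairpin RNA driven ubiquitously by Act5C. The hairpin was directed at 412 in the group 412KD, at roo in RooKD, and was a scrambled sequence in the scramble control, with 3 libraries in each group. The labels name no clones or separate cultures, so p-values measure the spread between pools, which may be technical. Both hairpin groups are compared with the same 3 scramble libraries.

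LINEs are retrotransposons without long terminal repeats. They encode an endonuclease and a reverse transcriptase and copy their RNA into DNA at the insertion site. DNA transposons move as DNA through a transposase that binds their terminal inverted repeats, Helitrons by a rolling-circle mechanism, and foldback elements are marked by very long inverted repeats. In flies Piwi-interacting RNAs (piRNAs) silence transposons in the gonad, and small interfering RNAs made by Dcr-2 and loaded into AGO2 act on them in somatic tissue such as the thorax, which is mostly flight muscle.

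The 4 transposon classes were a very small share of the RNA. They held 1282 to 2036 reads in a library of 17547687 to 26171509 counted reads, or 0.00622% to 0.00904%. LINE features had 5579 reads over the 9 libraries, Helitron features 3184, FB4_DM 2625 and DNA features 2367. The 5 transposon features with most reads held 60.9% of all reads of the 4 classes. At the other end, 20 of the 74 features had fewer than 10 reads in all 9 libraries together, and 7 stood in 1 of the tables only. A single read was worth 0.0382 to 0.0570 reads per 1000000 counted reads (CPM), so that many members rest on a handful of reads. The deposited lengths of these features, 9380 to 3788713 bases in the 4 classes, are those of a separate sequence under each feature's name and not of a transcript. Reads of different features are therefore compared only as shares of the library and not as levels per length.

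**Figure D1:**
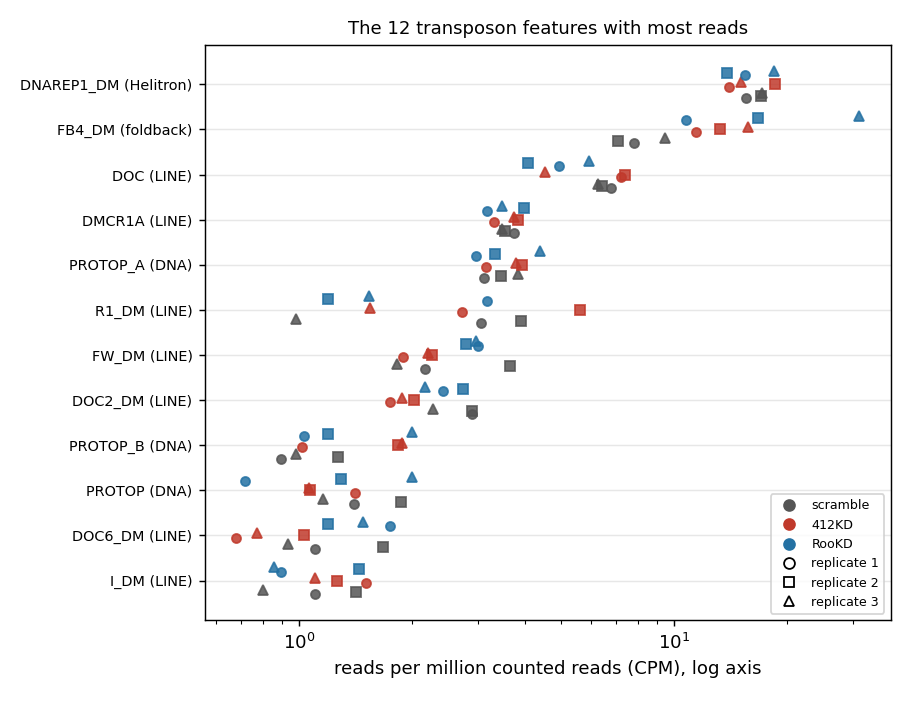
CPM (log axis) of the 12 transposon features with most reads, 1 symbol per library, with colour for the group and shape for the replicate number. FB4_DM is the feature whose 3 scramble libraries, at 7.08 to 9.47 CPM, all lie below the 6 hairpin libraries.

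Ovary transcripts were highest in 412KD replicate 3 and in RooKD replicate 1, and were present in 412KD replicate 1 as well. The summed level of 45 ovary and germline genes was 3795 CPM in the first and 2651 CPM in the second, against 987 to 1265 CPM in the other 7. The yolk receptor gene yl, a defining oocyte marker, was at 201 and 113 CPM in those libraries. It was at 28.1 and 0.459 CPM in 412KD replicates 1 and 2, and at 0 to 0.127 CPM in the other 5. The eggshell genes Vm26Aa and Vm26Ab had 541 and 439 reads in 412KD replicate 1. They had 336 and 211 in RooKD replicate 1 and 5 and 9 in 412KD replicate 3. The eggshell genes Cp36 and Cp38 went the other way, with 0 and 1 reads in 412KD replicate 1 and 6798 and 9205 in 412KD replicate 3. The 15 flight muscle genes, markers of the labelled tissue, summed to 10065 to 12289 CPM in every library. Among them Act88F was lower in RooKD, at a mean of 254 CPM against 454 CPM in scramble. Its log2 fold change was −0.72 ± 0.20 (SE), with adjusted p of 0.223 in edgeR and 0.0300 in DESeq2. DESeq2 called 1 of the 15 there, against 3.41% of all features, and 11 of the 15 were above 0. The 7 testis markers had 9 to 75 reads in a library, with bam, which is also in the ovary list, at 57 in 412KD replicate 3 and 58 in RooKD replicate 1. The 6 brain and eye markers had 250 reads in RooKD replicate 2, 158 of them from the opsin gene ninaE, and 19 to 62 in the other 8 libraries. In these bulk samples fewer cells of a type and less RNA per cell cannot be told apart.

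The comparison of 412KD with scramble asks whether other transposon classes differ in flies given the hairpin against 412. FB4_DM was higher in all 3 libraries of 412KD than in scramble. M4DM was too, on few reads. DESeq2 alone called these features, and single libraries decide the call of each. The other LINE, DNA and Helitron features were called by neither tool. With edgeR's quasi-likelihood F test and Benjamini-Hochberg adjustment over all 10431 features tested, 0 of the 27 transposon features that passed the filter on low counts were called, where 0.0192% of all features were. At an unadjusted p under 0.05 there were 4 (FB4_DM, M4DM, HOBO and LINEJ1_DM), against 11.2% of all features. M4DM and HOBO passed the filter through the 412KD libraries and LINEJ1_DM through scramble, which favours differences in those directions. DESeq2, the tool of the submitters' notes, gave an adjusted p to 38 transposon features. It called 2 up and 0 down at an adjusted p under 0.05, FB4_DM and M4DM. Of all features it called 2.97%, 1.89% up and 1.08% down.

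FB4_DM, the foldback feature, had 235, 346 and 386 reads in the 412KD libraries, 240, 335 and 546 in RooKD and 184, 140 and 213 in scramble. That is 11.4, 13.2 and 15.7 CPM for 412KD, 10.7, 16.7 and 31.1 for RooKD and 7.81, 7.08 and 9.47 for scramble. All 6 hairpin libraries lay above all 3 scramble libraries, and RooKD replicate 3 was far above every other library. The group means were 13.5 ± 2.17 CPM in 412KD, 19.5 ± 10.5 CPM in RooKD and 8.12 ± 1.22 CPM in scramble (SD, n = 3).

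The log2 fold change of FB4_DM in 412KD against scramble was 0.84 ± 0.18 (SE), with an edgeR adjusted p of 0.181. DESeq2 gave 0.84 with an adjusted p of 0.00995, and the authors' deposited table gives 0.84 with an adjusted p of 0.00996. Leaving out 1 library at a time kept the edgeR estimate between 0.73 and 1.01. DESeq2 then called FB4_DM in 3 of 6 such fits, and its adjusted p was 0.0598 without 412KD replicate 2, 0.156 without scramble replicate 1 and 0.124 without scramble replicate 2. In RooKD against scramble the log2 fold change of FB4_DM was 1.39 ± 0.40, with an edgeR adjusted p of 0.239, a DESeq2 adjusted p of 0.0111, and 1.39 with an adjusted p of 0.0108 in the authors' deposited table. Without RooKD replicate 3 it was 0.86 ± 0.26, with adjusted p of 0.310 in edgeR and 0.105 in DESeq2. DESeq2's adjusted p was also above 0.05 without scramble replicate 1 (0.215) and without scramble replicate 2 (0.211). The difference between 412KD and RooKD was −0.54 ± 0.35 on the log2 scale, with an edgeR adjusted p of 0.961.

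An AT-rich low-complexity feature, which is no member, was at 108, 222 and 265 CPM for 412KD, 26.1, 43.3 and 2430 for RooKD and 14.2, 32.9 and 35.9 for scramble. Within 412KD and within RooKD it ranked the libraries in the same order as FB4_DM, which it did not within scramble, and its part in the FB4_DM difference was not tested. In the 2 libraries highest in ovary transcripts FB4_DM was at 15.7 CPM in 412KD replicate 3 and at 10.7 CPM in RooKD replicate 1. These were the highest and the lowest of their groups, and the log2 fold change of FB4_DM was 0.74 without the first and 1.68 without the second.

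**Figure D2:**
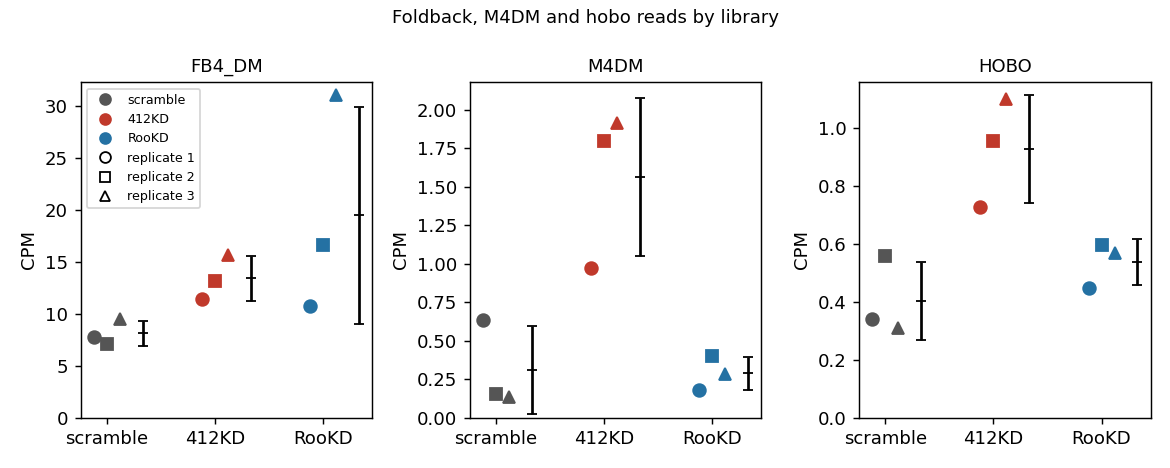
CPM of the foldback feature FB4_DM, the DNA feature M4DM and the hAT transposon HOBO in each library, with bars for the mean and SD of 3 libraries per group. FB4_DM is higher in both hairpin groups, at means of 13.5 and 19.5 CPM against 8.12 CPM in scramble, while the 3 libraries of 412KD alone lie above the rest for M4DM and HOBO.

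The reference annotation (BDGP6, the assembly also named dm6) places 61 insertions of the foldback family FB and 8 of the related NOF. The median FB insertion is 498 bases long and the longest 8160 bases, and 21 exceed 1000 bases. Of the 61, 47 (77.0%) lie within a gene and 6 touch an annotated exon. FB thus has a larger share of insertions within genes than the short element INE-1 (55.0% of 2235) or the Protop family (42.4% of 493), given as a description. Such a share is not particular to FB, since Tc1-2 is close (76.0% of 25) and the small families Fw2 (77.8% of 9) and R1-2 (100% of 2) are higher. The 43 tested genes that hold an FB insertion had a median log2 fold change of 0.04 in 412KD, with 29 above 0, and none was called by edgeR or by DESeq2. Over all features the median was 0.01, with 5319 of 10431 above 0. In RooKD 34 of 44 FB hosts were above 0, with a median of 0.13, and again none was called by either tool. Over all features 5460 of 10305 were above 0, with a median of 0.02. The genes that hold INE-1 gave 289 of 415 above 0 with a median of 0.12 in RooKD, close to the FB hosts. Which copies the FB4_DM reads came from is not known, since these features pool all copies.

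M4DM was classed with the Tc1-mariner DNA transposons by its name alone. It carried no transposase domain in the authors' annotation and was matched to no family of annotated insertions. Its reads were 20, 47 and 47 for 412KD, 4, 8 and 5 for RooKD and 15, 3 and 3 for scramble. All 3 libraries of 412KD were above the other 6, and scramble replicate 1, at 15 reads, was close to 412KD replicate 1. Means were 1.56 ± 0.514 CPM in 412KD, 0.287 ± 0.109 CPM in RooKD and 0.307 ± 0.286 CPM in scramble (SD, n = 3). The pooled reads, 114 against 21, gave a ratio of CPM of 5.01, with an exact 95% interval of 3.13 to 8.40 that covers counting error only.

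The log2 fold change of M4DM against scramble was 2.43 ± 0.61 (SE), with an edgeR adjusted p of 0.25 and a DESeq2 adjusted p of 0.0187, and 2.46 with an adjusted p of 0.0186 in the authors' deposited table. The feature passed the filter on low counts through the 412KD libraries, so its being tested already favours a higher value there. DESeq2 with the replicate number as a block gave an adjusted p of 0.0735. Of the fits without 1 library it called M4DM in 2 of 6, with adjusted p up to 0.169. Without scramble replicate 1 the edgeR log2 fold change was 3.51, with an adjusted p of 0.336. Against RooKD it was 2.43 ± 0.61, with an edgeR adjusted p of 0.413 and a DESeq2 adjusted p of 0.0608. In RooKD against scramble M4DM did not pass the filter.

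HOBO and TC1-2_DM were picked for description with their values known. HOBO is an hAT transposon known for hybrid dysgenesis in flies. It had 15, 25 and 27 reads for 412KD, 10, 12 and 10 for RooKD and 8, 11 and 7 for scramble, again with 412KD above the other 6 libraries. Its log2 fold change in 412KD was 1.33 ± 0.36 (SE), with an edgeR adjusted p of 0.283 and a DESeq2 adjusted p of 0.262. HOBO passed the filter on low counts there through the 412KD libraries, so its being tested already favours a higher value in 412KD. In RooKD the log2 fold change of HOBO was 0.55 ± 0.44, with an edgeR adjusted p of 0.627. The annotation holds 60 insertions of this family.

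TC1-2_DM, of the Tc1-mariner superfamily, had 13, 11 and 29 reads for 412KD, 15, 11 and 18 for RooKD and 5, 8 and 10 for scramble. Its log2 fold changes were 1.18 ± 0.52 in 412KD and 1.19 ± 0.49 in RooKD, with edgeR adjusted p of 0.470 and 0.372. In the comparison of RooKD with scramble TC1-2_DM passed the filter through the RooKD libraries. The related TC1_DM, at 49, 62 and 52 reads in 412KD, RooKD and scramble in all, gave −0.07 ± 0.43 and 0.54 ± 0.45, and the difference between these features was not tested.

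The most abundant DNA features were the 3 of the P-type family Protop, which match 1 family with 493 annotated insertions. PROTOP_A had close means in the 3 groups, at 3.63 ± 0.414 CPM in 412KD, 3.56 ± 0.744 CPM in RooKD and 3.45 ± 0.361 CPM in scramble (SD, n = 3). PROTOP_B had 21, 48 and 46 reads for 412KD, 23, 24 and 35 for RooKD and 21, 25 and 22 for scramble, a log2 fold change of 0.72 ± 0.32 in 412KD with an edgeR adjusted p of 0.473. PROTOP itself gave −0.19 ± 0.30 in 412KD and −0.01 ± 0.43 in RooKD, both within their errors.

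The summed DNA features were at 11.3, 13.3 and 14.5 CPM for 412KD, 9.66, 11.4 and 13.8 for RooKD and 10.7, 12.9 and 10.5 for scramble. The groups overlapped, and the ratio of means was 1.14 in 412KD and 1.02 in RooKD. These ratios rest on library totals, and with TMM scaling the log2 ratios of the DNA sums were 0.32 and 0.15. Without M4DM the mean was 11.5 ± 1.17 CPM in 412KD, 11.3 ± 2.03 CPM in RooKD and 11.1 CPM in scramble. Of the 21 DNA features, 12 were below the filter in each comparison with scramble. The rest had a median log2 fold change of 0.19 in 412KD and 0.17 in RooKD, against 0.01 and 0.02 over all features, with 2 and 1 of 9 free of overlap and higher. Over all features 8.70% and 9.72% were.

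By family, the 10 Tc1-mariner features, M4DM among them by name alone, came to 4.98 ± 0.632 CPM in 412KD, 4.28 ± 0.394 CPM in RooKD and 4.18 CPM in scramble. Without M4DM they came to 3.42 ± 0.218, 3.99 ± 0.332 and 3.87 ± 0.463 CPM, so that 412KD was no longer the highest. The 5 Transib features, which belong to a superfamily related to the RAG recombinase of vertebrates, were at 0.517 ± 0.152, 0.482 ± 0.228 and 0.790 CPM in the same order. LOOPER1_DM, a feature of the looper1 transposon, had 1, 0 and 10 reads for 412KD and 0, 1 and 0 for scramble and stood in the 412KD table only. Nearly all of its reads thus came from 412KD replicate 3, which is high in ovary transcripts. RooKD replicate 1 is high in them too, and the feature is not listed for RooKD. The part of ovary RNA in the LOOPER1_DM reads was not tested.

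**Figure D3:**
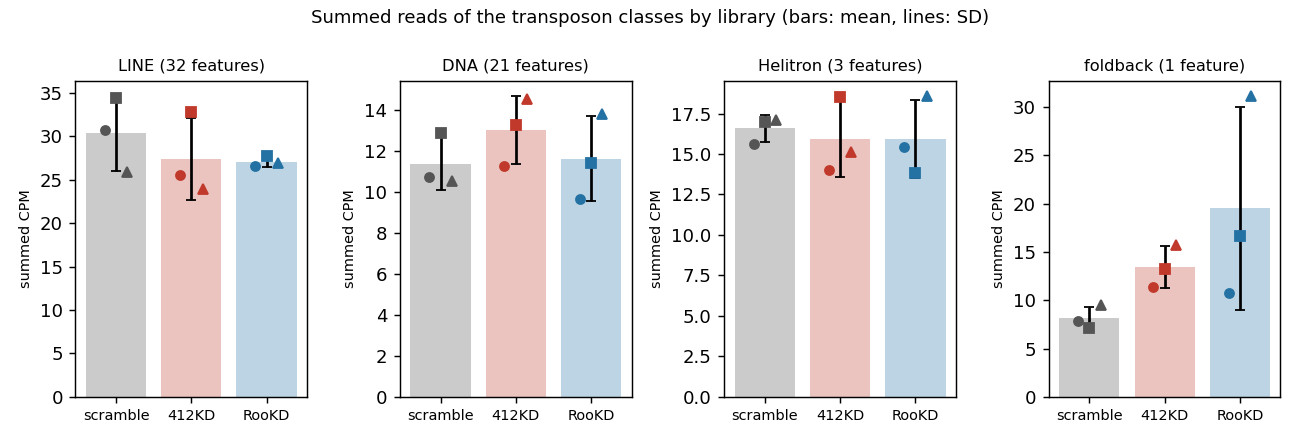
Summed CPM of the 4 transposon classes by library, with bars for group means, lines for SD (n = 3) and symbols (circle, square and triangle) for replicates 1, 2 and 3. LINE, DNA and Helitron sums overlap between the groups, and FB4_DM alone separates scramble from both hairpin groups.

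LINE features, the largest class by reads, overlapped between the groups as a sum. They came to 25.5, 32.8 and 23.9 CPM for 412KD, 26.6, 27.7 and 26.9 for RooKD and 30.7, 34.4 and 25.8 for scramble, with means of 27.4 ± 4.74, 27.1 ± 0.589 and 30.3 ± 4.30 CPM (SD, n = 3). The ratio of means to scramble was 0.904 in 412KD and 0.893 in RooKD. Library totals, on which CPM rests, put the median of all features at −0.12 and −0.11 on the log2 scale, and with TMM scaling the log2 ratios of the LINE sums were −0.014 and −0.040. The members lay on both sides of 0. In 412KD 8 of the 16 LINE features that passed the filter were above 0, with a median of −0.02, and in RooKD 9 of 16, with a median of 0.05. No LINE feature was called by edgeR or DESeq2 in any of the 3 comparisons, and 1 in 412KD, 0 in RooKD and 1 between the hairpin groups had an unadjusted edgeR p under 0.05, against 11.2%, 12.7% and 6.02% of all features. Of the 16 tested in 412KD, 4 were lower without overlap with scramble (DOC2_DM, G2_DM, BS and LINEJ1_DM) and 1 was higher (DMCR1A), or 31.2% against 17.7% of all features. This was judged on TMM-scaled counts. In CPM DMCR1A did overlap, at 3.30, 3.82 and 3.75 for 412KD and 3.74, 3.54 and 3.47 for scramble. In RooKD 0 of 16 were lower and 1 was higher (DOC3_DM), or 6.25% against 18.7% of all features. Against RooKD 5 of 17 were lower in 412KD without overlap and 0 higher, or 29.4% against 9.09% of all features. These are FW_DM, DOC2_DM, DOC6_DM, DOC3_DM and LINEJ1_DM, and neither tool called any of them.

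DOC, a jockey-type LINE with 81 annotated insertions of median length 4708 bases, led the class. It had 148, 193 and 111 reads for 412KD, 110, 82 and 104 for RooKD and 160, 127 and 141 for scramble. Its mean of 4.97 ± 0.926 CPM in RooKD was below the 6.50 ± 0.271 CPM of scramble (SD, n = 3), with all 3 RooKD libraries lower in CPM, but the log2 fold change of −0.25 ± 0.20 had an edgeR adjusted p of 0.631. In 412KD it was 0.10 ± 0.23, with an edgeR adjusted p of 0.887. DMCR1A, the single CR1-type member, was the steadiest of the 12 features with most reads, at 3.18 to 3.98 CPM in all 9 libraries.

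Among the other jockey-type features DOC2_DM was lower in all 3 libraries of 412KD, at 1.75, 2.03 and 1.87 CPM, than in scramble, at 2.89, 2.88 and 2.27 CPM, and it was at 2.41, 2.73 and 2.17 CPM in RooKD. Its log2 fold change of −0.38 ± 0.21 in 412KD had an edgeR adjusted p of 0.538. DOC6_DM had 0.68, 1.03 and 0.77 CPM for 412KD, 1.74, 1.19 and 1.48 for RooKD and 1.10, 1.67 and 0.93 for scramble. It gave the lowest edgeR p of the LINE features between 412KD and RooKD, at −0.82 ± 0.33 with an adjusted p of 0.791. FW_DM, the F element, was also lower in every 412KD library than in every RooKD library, at means of 2.12 ± 0.194 against 2.91 ± 0.114 CPM (SD, n = 3), with −0.45 ± 0.27 and an edgeR adjusted p of 0.940. LINEJ1_DM, the jockey element itself, had 20 reads in 412KD, 27 in RooKD and 45 in scramble, and a log2 fold change of −1.18 ± 0.46 in 412KD with an edgeR adjusted p of 0.417. It passed the filter in that comparison through the scramble libraries, so its being tested already favours a lower value in 412KD.

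The 22 jockey-type features summed to 16.1, 18.1 and 13.8 CPM for 412KD, 16.7, 17.6 and 18.7 for RooKD and 19.3, 21.7 and 17 for scramble. In CPM 2 of the 3 libraries of 412KD and 1 of RooKD lay below every scramble library. These sums rest on library totals, which put the median of all features below 0 in both comparisons with scramble, and were not TMM-scaled. The 2 I-type features, of which the I element is known for hybrid dysgenesis, came to 1.91 ± 0.141 CPM in 412KD, 1.74 ± 0.281 CPM in RooKD and 1.72 CPM in scramble. The lowest LINE fold change in 412KD was that of G5_DM, at −1.19 ± 0.81, which rests on 18 reads in 412KD against 41 in scramble. G5_DM too passed the filter through the scramble libraries. BS3_DM had 10 reads in 412KD, 0 in RooKD and 3 in scramble, and Baggins1 had 21, 10 and 26. Another 4 LINE features had fewer than 10 reads in all libraries together.

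R1_DM and R2_DM are features of the elements R1 and R2, which insert into the 28S ribosomal RNA genes. R1_DM varied widely within each group, with 56, 147 and 38 reads for 412KD, 71, 24 and 27 for RooKD and 72, 77 and 22 for scramble, and each group spanned much of the range of the others. Its log2 fold changes were 0.47 ± 0.62 in 412KD and −0.27 ± 0.53 in RooKD, with edgeR adjusted p of 0.799 and 0.864. The large-subunit ribosomal feature LSU-rRNA_Dme, which measures rRNA left in the libraries, had 251, 770 and 443 reads for 412KD, 725, 533 and 147 for RooKD and 507, 395 and 686 for scramble. In 412KD and in RooKD the library highest in R1_DM was also highest in LSU-rRNA_Dme, which was not so in scramble, and the part of rRNA in the R1_DM reads was not tested. R2_DM had 16 reads in 412KD, 1 in RooKD and 16 in scramble, and was too low for the tests.

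The Helitron class was 1 feature in practice. DNAREP1_DM, the short element INE-1, held 99.7% of its reads. It had 288, 485 and 370 reads for 412KD, 344, 277 and 323 for RooKD and 366, 336 and 385 for scramble, and was at 15.9 ± 2.38, 15.9 ± 2.35 and 16.6 ± 0.874 CPM (SD, n = 3). The groups overlapped, and the TMM-scaled log2 fold changes of 0.06 ± 0.14 and 0.07 ± 0.16 against scramble turn to −0.060 and −0.062 with library totals. INE-1 makes up 37.9% of the 5896 insertions in the annotation, with 2235 copies of median length 146 bases, 1230 of them within a gene. No value here separates reads of host transcripts that contain INE-1 from reads of the element's own RNA. DNAREP1_DYak, named after another Drosophila species, had 0, 5 and 2 reads in 412KD, RooKD and scramble.

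Among the 17 features counted apart, the ribosomal LSU-rRNA_Dme and SSU-rRNA_Dme summed to 15.1, 37.1 and 22.4 CPM for 412KD, 42.4, 33.1 and 11.9 for RooKD and 27.1, 26.1 and 37.5 for scramble, with the groups overlapping. ROVER-I_DM had 66, 37 and 42 reads in 412KD, RooKD and scramble, and QUASIMODO2-I_DM had 73, 56 and 48. PLACW_DM, a vector feature, had 35, 24 and 18 reads. P_DG had 7, 4 and 5 reads and TLD2 had 5, 1 and 2. None of these was called by edgeR or DESeq2 in any comparison.

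The comparison of RooKD with scramble asks the same of the hairpin against roo. Beside FB4_DM, the transposon features were close to the whole table. Of 27 that passed the filter, edgeR called 0, where it called 0.107% of all features, and 2 had an unadjusted p under 0.05 (FB4_DM and TC1-2_DM), against 12.7% of all features. Of 24 with a DESeq2 adjusted p, DESeq2 called 1 up, FB4_DM, and 0 down, where it called 3.41% of all features, 2.32% up and 1.09% down. The libraries did not overlap for 3 features, all higher (FB4_DM, DOC3_DM and TC1-2_DM), against 9.72% of all features higher and 18.7% in either direction. DOC3_DM, a jockey-type LINE, had 61 reads in RooKD and 42 in scramble, with 0.78 ± 0.36 and an edgeR adjusted p of 0.421. In 412KD the libraries did not overlap for 4 features that were higher and 4 that were lower of 27, against 8.70% and 9.01% of all features, or 17.7% in either direction. The medians of the 27 were 0.09 in both comparisons, against 0.01 and 0.02 over all features. The filter keeps features through the group in which they are high, so these shares describe the tested features only.

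The 2 hairpin groups were also compared with each other, in a fit of all 9 libraries. Of 29 transposon features tested edgeR called 0, where 0.0943% of all features were called. DESeq2 called 0 of the 28 to which it gave an adjusted p, where 0.774% of all features were. M4DM and DOC6_DM had an unadjusted p under 0.05, against 6.02% of all features. The libraries did not overlap for 8 features, with M4DM and HOBO higher in 412KD and 6 lower. Over all features 4.23% were higher without overlap and 4.86% lower, or 9.09% in either direction.

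**Figure D4:**
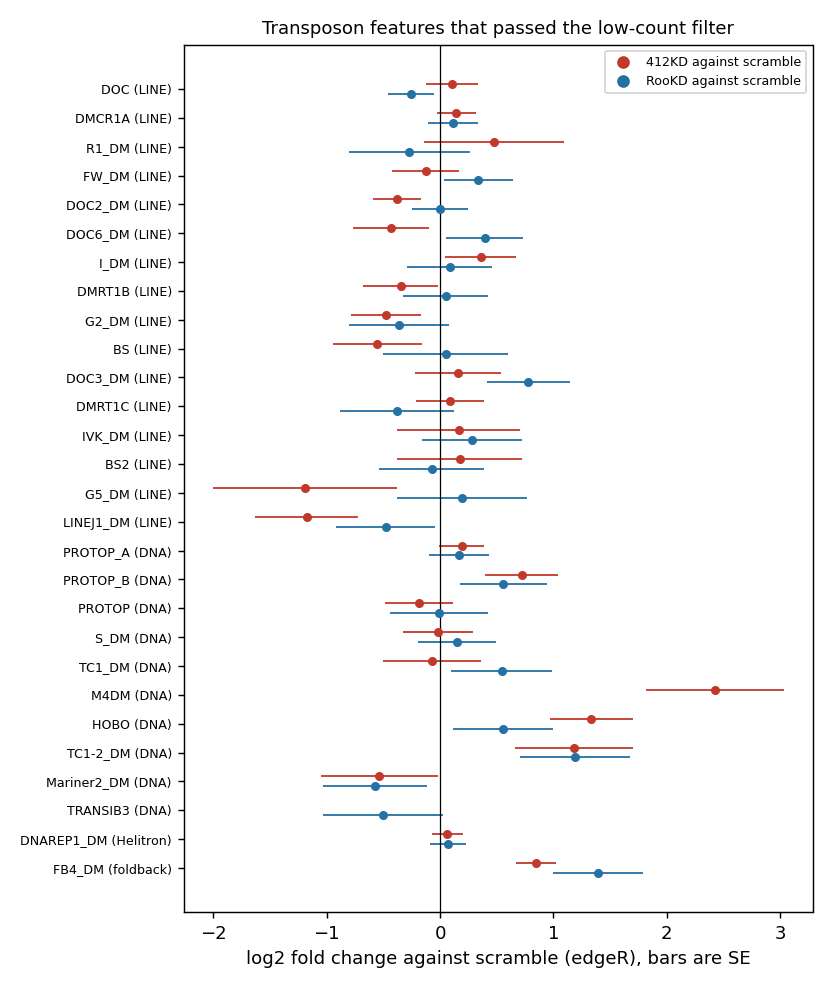
edgeR log2 fold changes (bars are SE) of the transposon features that passed the filter on low counts in 412KD (red) and RooKD (blue) against the same 3 scramble libraries. Most points lie within 1 log2 unit of 0. FB4_DM (0.84 and 1.39), M4DM (2.43 in 412KD) HOBO (1.33 in 412KD) and TC1-2_DM (1.18 and 1.19) lie to the right, and G5_DM (−1.19) and LINEJ1_DM (−1.18) to the left in 412KD.

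Genes known to act on transposons were read beside these features from 3 lists. In the piRNA list of 37 genes, 33 passed the filter in 412KD and edgeR called 0, with 3 at an unadjusted p under 0.05, where 11.2% of all features were. DESeq2 called 2 up of 37 there, against 1.89% of all features, vas, a germline RNA helicase gene (log2 fold change 3.36 ± 1.14), and Boot (2.71 ± 0.76), with DESeq2 adjusted p of 0.0154 and 0.00528. In RooKD it called 0 of 32, as did edgeR, with 2 at an unadjusted p under 0.05, where 12.7% of all features were. The libraries 412KD replicate 3, RooKD replicate 1 and, at a lower summed level, 412KD replicate 1 carry the ovary transcripts described above. The part of ovary RNA in the 2 calls was not tested.

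Of the 6 siRNA pathway genes, 5 were tested and 0 called by either tool in the comparisons with scramble, with 0 and 1 at an unadjusted p under 0.05, against 11.2% and 12.7% of all features. The 1 in RooKD was loqs, a partner gene of Dicer, at −0.43 ± 0.14 with an edgeR adjusted p of 0.274. AGO2, which loads the small interfering RNAs, was at −0.18 ± 0.19 in 412KD, and Dcr-2, which makes them, at 0.03 ± 0.14. Of the 13 heterochromatin genes, 12 were tested and 0 called by either tool, again with 0 and 1 at an unadjusted p under 0.05. The 1 in RooKD was G9a, a histone methyltransferase gene, at 0.44 ± 0.14 with an edgeR adjusted p of 0.272, and it was at 0.47 ± 0.23 in 412KD.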

How the data were processed

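The authors deposited 1 table per hairpin with the scramble libraries. The deposited read counts per feature, per the file headers, were used in all tests. The deposited normalized signal is the count divided by 1 size factor per library, and the deposited FPKM divides by the feature length. Both were read only for how they were made. The authors' log2 fold changes and p-values are given where named. The submitters' processing notes name HISAT2, DESeq2 and dm6 with no version. Not given in the sources used here are the counting tool, the use of strand and the treatment of reads that match several copies.

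Counts were tested with edgeR 4.0.16 (R 4.3.3; TMM, filterByExpr, robust quasi-likelihood F test, Benjamini-Hochberg over all features, threshold 0.05) and with DESeq2 1.42.0 as an alternative. SE is the log2 fold change divided by the square root of F. Each comparison with scramble used its 6 libraries, and 412KD against RooKD used all 9 and the features shared by both tables, 13759 before the filter. Tests and CPM leave out 6 low-complexity rows, which held 0.00191% to 0.244% of reads. Overlap was judged on TMM-scaled counts. Scripts were tested on simulated data. Samples with the same replicate number deviated together in 412KD and scramble (correlations of 0.133, 0.179 and 0.161). The labels do not say that a number marks a shared parent, vial or day. Unlike-numbered libraries of 412KD and scramble were lower, at −0.140 to 0.0308. Between the hairpin groups unlike-numbered libraries also correlated, such as 412KD replicate 3 and RooKD replicate 1, both high in ovary transcripts, at 0.355. The main tests use no block because the labels do not define the number, and a fit with the number as a block was made as an alternative. Replicates differed by more than sampling noise (chi-square per degree of freedom 22.3 to 175.4).

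Named features are those called by either tool, the 12 with most reads, up to 5 each way without overlap and at least 20 mean normalized counts, and the 2 most abundant of each class. HOBO, TC1-2_DM, TC1_DM, LINEJ1_DM, DOC3_DM, R2_DM, G5_DM, BS3_DM, Baggins1 and LOOPER1_DM were named with their values known. The members and lists were chosen with earlier results of these data known.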

Additional observations from a re-analysis of the deposited data

Results flagged for a closer look

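The AT-rich low-complexity feature, which names no gene and was left out of every comparison, exceeded its level in the scramble libraries (at most 35.9 CPM) in 5 libraries. It was at 108 CPM in 412KD replicate 1, at 222 CPM in 412KD replicate 2, at 265 CPM in 412KD replicate 3, at 43.3 CPM in RooKD replicate 2 and at 2430 CPM in RooKD replicate 3. FB4_DM was at 11.4, 13.2, 15.7, 16.7 and 31.1 CPM in the same libraries.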

How the results depend on the processing

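The edgeR count of called transposon features was 0 in all 3 comparisons under every edgeR alternative run (other normalizations, no filter on low counts, the replicate number as a block, more or fewer groups in the fit, each library left out). DESeq2 gave 2 in 412KD and 1 in RooKD. DESeq2 with the block gave 1 in each, FB4_DM, and without single libraries 0 to 2 in 412KD, 0 to 1 in RooKD and 0 to 1 between the hairpin groups. The DESeq2 fits without single libraries and with the block were chosen after seeing the data. In edgeR, FB4_DM with the replicate block was at 0.85 in 412KD (adjusted p 0.153) and at 1.27 in RooKD (0.157), and the block changed no edgeR call of a transposon feature. Over all features edgeR called 2 in 412KD, 11 in RooKD and 10 between the hairpin groups, and 0, 10 and 4 with the block. Same-numbered libraries of RooKD and scramble correlated at 0.222, −0.0383 and 0.0707 and those of 412KD and RooKD at −0.0247, 0.425 and −0.181. These differ in sign, and what a shared number stands for was not tested. Without DNAREP1_DM the Helitron sums rest on a few reads, and their log2 ratios were 0.61 in 412KD against scramble, 1.64 in RooKD against scramble and −1.03 between the hairpin groups.

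The direction of uncalled features near 0 turned with the setting, and the cause was not tested. With library totals, DMCR1A was at −0.016 and DNAREP1_DM at −0.062 in RooKD, and DNAREP1_DM at −0.060 and DOC at −0.030 in 412KD. TC1-2_DM between the hairpin groups was at 0.0035 with upper-quartile scaling, 0.00069 with library totals and 0.0027 without a filter. Without 412KD replicate 3 and RooKD replicate 1, the libraries highest in ovary transcripts, the values between the hairpin groups were −0.052 for DMCR1A, −0.11 for PROTOP_A, −0.13 for PROTOP_B, and TC1-2_DM kept its sign at −0.56. Leaving out 1 library at a time gave, in 412KD against scramble, −0.061 to 0.13 for DNAREP1_DM, −0.025 to 0.32 for DOC, −0.29 to 0.19 for FW_DM and −0.15 to 0.84 for R1_DM. In RooKD against scramble it gave −0.073 to 0.15 for DNAREP1_DM, −0.099 to 0.061 for DOC2_DM, −0.43 to 0.30 for PROTOP, −0.028 to 0.29 for PROTOP_A and −0.79 to 0.085 for R1_DM. Between the hairpin groups it gave −0.042 to 0.13 for DMCR1A, −0.12 to 0.14 for DNAREP1_DM, −0.47 to 0.25 for PROTOP, −0.091 to 0.22 for PROTOP_A, −0.019 to 0.51 for PROTOP_B and −0.47 to 0.29 for TC1-2_DM. With TMM-scaled CPM the log2 ratios of the LINE sums to scramble were −0.014 in 412KD and −0.040 in RooKD, and those of the DNA sums 0.32 and 0.15. Depth limits the members with few reads: 20 had fewer than 10 in all.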
